A study of Mus musculus with 4 samples.

Results

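The cells described here are neurons of the E11.5 mouse telencephalic midline that held RNA of Trp73, the gene of the p53-family transcription factor p73, together with RNA of genes that Cajal-Retzius cells use. Cells were chosen by their own counts of these genes, so these values are no finding. A barcode was taken when it had at least 1000 detected genes, at most 10% of its UMIs in mitochondrial genes, at least 1 UMI of Trp73 and at least 2 summed UMIs of Lhx1, Ebf2, Ebf3, Reln and Tbr1. A UMI is a molecular tag that counts 1 captured RNA molecule. The rule found 652 cells, 300 of them in the gof library and 352 in the control library, among the 14555 barcodes of both E11.5 libraries that passed the filter on genes and mitochondrial UMIs (7593 gof and 6962 control). The 4 libraries of the series held 27196 such barcodes. These cells are called Trp73 neurons below.

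The study addressed whether constant activity of canonical Wnt signalling in the cortical hem changes the making of hem-derived Cajal-Retzius cells. Gof embryos carried Lmx1aCre, Ai9 and an allele labelled b-cat gof, and control embryos carried Lmx1aCre and Ai9 alone, so the Cre driver and the reporter were shared by both groups. Lmx1aCre is active where the Lmx1a gene is or was, the hem among other places, and Ai9 makes tdTomato after Cre has acted, so both libraries can hold cells that never had Cre. The E11.5 libraries came from tissue around the hem of 5 male embryos each and the E14.5 libraries from 3, read from the 3′ ends of RNA by the 10x droplet method (v3.1 kit) and pooled into 1 library per genotype and age. With 1 library per group there is no replicate, no test between genotypes was possible, and intervals cover counting error only.

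Cajal-Retzius cells are among the earliest neurons of the cortex. They arise at borders of the pallium, the hem being a main source, spread beneath the surface and secrete Reelin, which guides the layering of later neurons. Those from the hem express Trp73, and p73 is known in epithelia as an activator of the programme that makes multiciliated cells. In that programme Gmnc, a geminin-like coiled-coil factor, stands upstream of its relative Mcidas and of the cyclin-like gene Ccno, which drive centriole amplification, and of Foxj1, the master regulator of motile cilia. Cajal-Retzius cells are neurons and carry no tuft of motile cilia. p73 also shares target genes with p53, among them the cell cycle inhibitor Cdkn1a.

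Total UMIs per Trp73 neuron had a lowest, median and highest value of 1579, 4241 and 59158 in gof, against 1792, 6382 and 85813 in control. Only 13 gof cells but 52 control cells had over 20000 UMIs, and these deep barcodes weigh heavily on the control sums, so comparisons of gof with control are also given without them. The Trp73 neurons summed to 1937847 UMIs in gof and 4028351 in control. The median over all filtered barcodes was 5872 UMIs in gof and 8500.5 in control. The E11.5 libraries shared 18 barcode sequences, none of them of a Trp73 neuron in both. Scrublet's own threshold called 6 barcodes in each library and did not work, so doublets were left in. Removing the barcodes with the highest Scrublet scores would take out 461 of 7593 filtered gof barcodes and 388 of 6962 control ones. Among them were 43 of the 300 gof and 57 of the 352 control Trp73 neurons, a higher rate than over all filtered barcodes in both libraries.

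Trp73 was sparse even in the cells chosen for it. In gof, 152 of the 300 cells (50.7%) had a single Trp73 UMI, the median was 1 and the highest was 8. In control, 130 of 352 cells (36.9%) had a single UMI, the median was 2 and the highest was 12. Partner UMIs had a median of 5 in gof and 7 in control. At the edge of the rule, the 42 gof cells with exactly 2 partner UMIs had 94.6 CPM of Ccno and 83.6 CPM of Mcidas (CPM being the UMIs of a gene scaled to the total UMIs of the population), and the 34 gof barcodes with Trp73 but a single partner UMI, which were left out, had 80.4 and 20.1 CPM. In control these values were 57.7 and 54.6 CPM in the 45 cells just inside and 38 and 73.8 CPM in the 55 barcodes just outside. Barcodes on both sides of the partner limit held both RNAs. At the Trp73 limit, gof cells with 1 Trp73 UMI had 65.0 CPM of Ccno, against 9.75 CPM in 900 barcodes that met all other conditions with 0 Trp73 UMIs. In control, cells with 1 Trp73 UMI had 50.8 CPM of Ccno, against 6.40 CPM in 716 barcodes with none.

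The label was checked against Trp73, Lhx1, Ccno, Mcidas and Reln. Trp73, Lhx1 and Reln are part of the rule, so only Ccno and Mcidas are independent of it. Shares of cells with a UMI are given after each cell was thinned to 3000 UMIs, which left out the 61 gof and 10 control Trp73 neurons that were shallower. Reln, the gene of Reelin, was detected in 35.6% of gof and 38.6% of control Trp73 neurons, and Lhx1, a LIM-homeodomain factor, in 51% of gof and 37.4% of control ones (unthinned, 47.7% and 62.2% for Reln, 67.3% and 47.4% for Lhx1). General neuronal RNA was present in most cells: the summed UMIs of Stmn2, Tubb3, Elavl3, Elavl4 and Dcx reached 10 in 233 gof cells (77.7%) and 276 control cells (78.4%). The other 67 gof and 76 control cells had fewer, down to 0. The 12 neural progenitor markers summed to 1886 CPM in gof and 2896 CPM in control Trp73 neurons. Of these cells, 170 in gof (56.7%) and 288 in control (81.8%) held 5 or more such UMIs, beside 61.1% and 85.8% of the neurons without Trp73 described below. The 10 mesenchymal marker genes summed to 239 CPM in gof and 219 CPM in control Trp73 neurons, and all 10 were detected in both, with 17 gof and 33 control cells holding 5 or more such UMIs. The endothelial and mural list summed to 56.8 CPM in gof and 14.6 CPM in control, the immune list to 32.0 and 37.7 CPM, and the erythroid list to 16578 and 14752 CPM, the last made of haemoglobin RNA that also reached 18202 CPM in gof and 9949 CPM in control neurons without Trp73. Ptprc was at 0 in both libraries, as was Kcnj8. The part of these other cell types in the results was not tested.

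For reference, 2 other populations were taken from the same libraries. Trp73-negative early neurons had 0 Trp73 UMIs, at least 2 partner UMIs and at least 10 neuronal UMIs. There were 576 in gof with a median of 4789.5 UMIs and 443 in control with a median of 7968. A mesenchymal reference of 1123 gof and 535 control cells (medians 6557 and 7778 UMIs) had at least 10 summed UMIs of Col1a1, Col1a2 and Col3a1 and fewer than 5 neuronal UMIs, and shows how often a neural RNA turns up in cells that should lack it. Since Trp73 and the partner genes chose the cells, every value of the Trp73 neurons against the Trp73-negative ones is a description. A gene was called different when it was at least 1.5-fold apart after adding 1 CPM, with separate 95% Poisson intervals, at 20 CPM or more in either population. In both libraries and in the same direction, 151 genes were called higher in Trp73 neurons (2.2% of 6850 tested) and 40 were called lower (0.584%). Because the rule used this contrast, nothing is read from these shares.

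Regulators of multiciliation were among the genes called higher in Trp73 neurons than in the Trp73-negative ones. Of 15 multiciliation regulators, 9 were called higher than in Trp73-negative neurons in both libraries (Gmnc, Mcidas, Ccno, Cdc20b, Deup1, Foxj1, Myb, Plk4 and Cep152) and none lower, beside 2.2% of all tested genes called higher. Of these 9, only Gmnc and Plk4 had 20 CPM or more in Trp73-negative neurons. The others passed the limit on low values through the Trp73 neurons and had to differ, so nothing is drawn from the count or its median. The list's median log2 ratio was 2.16 in gof and 1.74 in control, beside 0.06 and 0.02 over all tested genes. Gmnc, on chromosome 16 (16:26913553-26991652, minus strand, GRCm38), had 172 (154 to 192) CPM in gof Trp73 neurons against 42.3 (36.2 to 49.1) CPM in gof Trp73-negative neurons (parentheses hold the 95% Poisson interval). In control it had 213 (199 to 228) CPM against 51.3 (45.7 to 57.4) CPM (log2 ratio 2.0 in gof and 2.04 in control). Trp73-negative neurons were held to at least 10 neuronal UMIs and Trp73 neurons were not. With Trp73 neurons held to it too, Gmnc had 103 CPM in gof and 178 CPM in control Trp73 neurons, and the smaller of the 2 libraries' log2 ratios was 1.26.

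Mcidas and Ccno lie next to each other on chromosome 13 (Ccno 13:112987802-112990777, Mcidas 13:112993845-113000394, both plus strand, 3067 bases between them), and Cdc20b, a relative of Cdc20 whose locus hosts a microRNA family of multiciliated cells, follows 34716 bases on (13:113035111-113091195). Gpx8 lies inside Cdc20b on the other strand, and no source used here says whether the counting used strand. It was not called between the 2 populations. All of these regulators were rare in Trp73-negative neurons. Mcidas had 66 (55.1 to 78.5) CPM in gof Trp73 neurons against 4.23 (2.46 to 6.77) CPM in gof Trp73-negative neurons, and 106 (96.7 to 117) CPM against 6.68 (4.77 to 9.10) CPM in control (log2 ratio 3.68 and 3.81). Ccno had 66 (55.1 to 78.5) CPM against 7.96 (5.45 to 11.2) CPM in gof, and 95.3 (86 to 105) CPM against 6.35 (4.49 to 8.71) CPM in control (2.90 and 3.71). For Cdc20b the values were 48 (38.7 to 58.8) against 6.22 (4.03 to 9.18) CPM in gof and 82.2 (73.5 to 91.5) against 4.51 (2.97 to 6.56) CPM in control (2.76 and 3.92). For all 3 genes the level in Trp73 neurons was lower in gof than in control, with separate intervals. Over the alternatives of cell choice and scaling that were run, the smaller of the 2 libraries' log2 ratios stayed between 2.48 and 4.07 for Mcidas, between 2.38 and 3.8 for Ccno and between 1.76 and 3.41 for Cdc20b.

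Foxj1 (11:116330704-116335399, minus strand) had 77.9 (66 to 91.4) CPM against 14.4 (11 to 18.6) CPM in gof, and 87.6 (78.7 to 97.3) CPM against 8.52 (6.34 to 11.2) CPM in control. Deup1, the scaffold of the deuterosomes on which multiciliated cells build centrioles, had 24.2 CPM against 1.49 CPM in gof and 20.6 CPM against 1.0 CPM in control. Of the genes shared with ordinary centriole duplication, Plk4, its master kinase, had 43.4 against 24.4 CPM in gof and 58.6 against 35.6 CPM in control, and the centriole scaffold Cep152 had 41.3 against 7.46 CPM in gof and 46.7 against 12.9 CPM in control. Rfx2, a ciliary transcription factor, had 18.6 against 10.2 CPM in gof, below the limit on low values, and was called higher in control, at 26.8 against 16.5 CPM. The remaining regulators of the list were called in neither library. Rfx3, of the same family, stood at 128 against 127 CPM in gof and 102 against 98.4 CPM in control, and Gmnn, the gene of geminin, which binds Gmnc and Mcidas, at 85.7 against 85.3 CPM in gof and 133 against 145 CPM in control. E2f4, E2f5 and Tfdp1, which form the transcription complex that Mcidas works through, were between 25.8 and 84.1 CPM in gof Trp73 neurons and were called in neither direction.

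Counted by cell, each of these RNAs was found in part of the Trp73 neurons. After thinning, Mcidas was detected in 22.6% (17.5 to 28.4) of gof and 32.5% (27.5 to 37.7) of control Trp73 neurons (unthinned, 30% and 53.4%), against 1.80% and 2.31% of Trp73-negative neurons and 0% and 0.188% of mesenchymal cells. Ccno was detected in 20.5% (15.6 to 26.2) of gof and 28.4% (23.6 to 33.5) of control Trp73 neurons (unthinned, 26.7% and 48.9%), and Gmnc in 27.6% (22 to 33.7) and 35.1% (30 to 40.4) (unthinned, 35% and 54.5%). Trp73 itself, which every cell had before thinning, was retained in 66.9% and 64.3%, which shows how many cells lose a sparse RNA at this depth. Either Ccno or Mcidas was found in 33.5% of gof (27.5 to 39.8, 80 of 239) and 47.7% of control Trp73 neurons (42.3 to 53.1, 163 of 342), beside 4.01% and 3.23% of Trp73-negative neurons. The gof and control intervals did not overlap, and the log2 ratio was -0.51. Over the alternatives run it lay between -0.77 and -0.44.

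**Figure D1:**
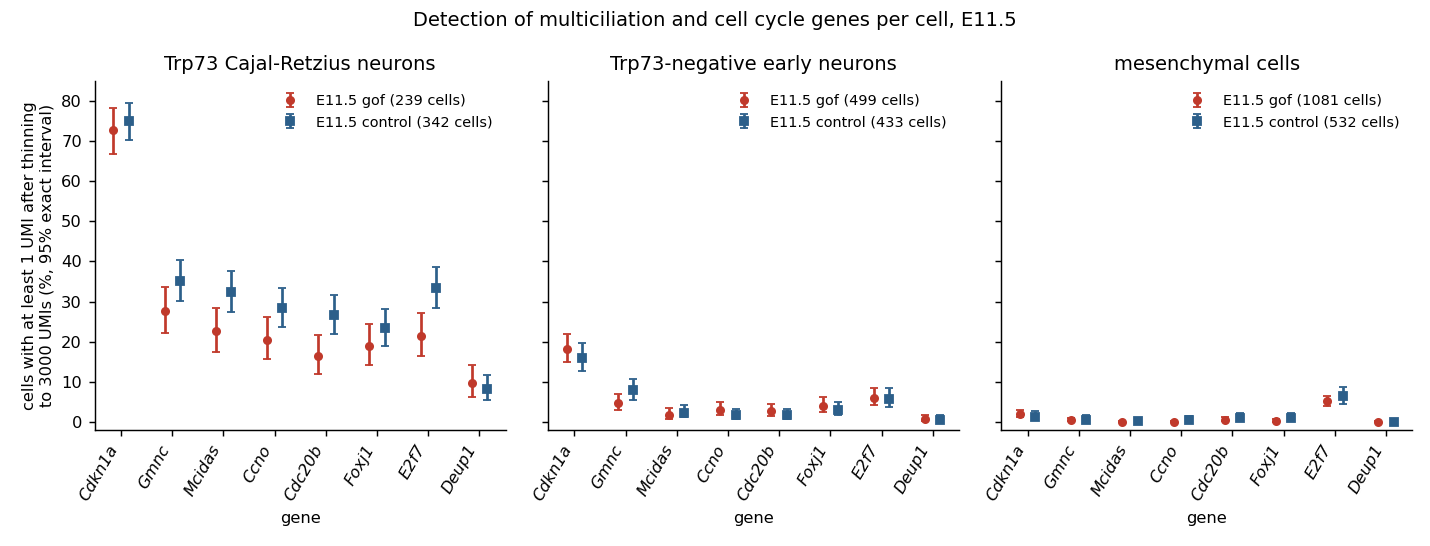
Share of cells with a UMI of each gene after thinning to 3000 UMIs, in percent, for Trp73 neurons, Trp73-negative early neurons and mesenchymal cells (gof circles left, control squares right, bars the exact 95% binomial interval). In the Trp73 neurons Cdkn1a reached 72.8% in gof and 75.1% in control, Mcidas 22.6% and 32.5%, while the mesenchymal cells stayed at or near 0 for Mcidas, Ccno and Deup1.

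Several regulators were often detected in the same cell. Among Gmnc, Mcidas, Ccno, Cdc20b and Foxj1, a set chosen after their values were seen, at least 2 were detected in 31.0% of thinned gof Trp73 neurons (74 of 239, interval 25.2 to 37.2) and 42.7% of control ones (146 of 342, 37.4 to 48.1), against 3.41% and 2.31% of Trp73-negative neurons. At least 3 were detected in 15.5% of gof and 27.2% of control Trp73 neurons. No thinned gof cell had all 5, and 8 control cells did. At the other end, 46.9% of gof and 34.8% of control Trp73 neurons had none of the 5 at this depth, so the population ranged from cells with most of the regulators to cells with none detected.

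**Figure D2:**
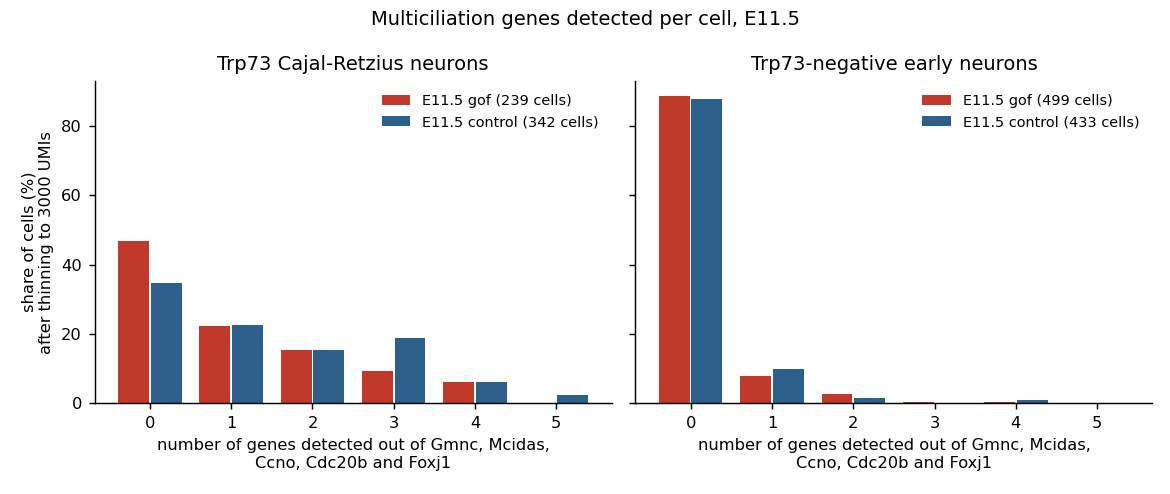
Share of cells, in percent, by the number of the genes Gmnc, Mcidas, Ccno, Cdc20b and Foxj1 detected after thinning to 3000 UMIs (gof bars left of control bars). None was detected in 46.9% of gof and 34.8% of control Trp73 neurons, against 88.6% and 87.8% of Trp73-negative early neurons.

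Promoters were read for the named genes that stood highest in Trp73 neurons against Trp73-negative neurons, to show the bases just before their starts. RefSeq (GRCm38.p6) gave a promoter, 250 bases before to 50 bases after a start, for 9 of the 11 named genes other than Trp73, which made 10 promoters. GTTGCC, the half-site that RFX ciliary factors bind, was in 5 of the 10 (50%) on either strand (Shisa8, Mcidas, Dynlrb2, Ccno and Cdkn1a), in 22.6% of the promoters of all called-higher genes, in 12.7% of those of tested genes and in 12.5% of all 32851 promoters. TTCCCGC, an E2F motif, was also in 5 of the 10 (Shisa8, Cav2, Cdc20b, E2f7 and Pidd1), in 15.5% of called-higher, 8.76% of tested and 4.60% of all promoters. ACATGT, the core of the p53-family site, was in 1 (Cdkn1a, 2 copies), in 5.16% of called-higher, 2.09% of tested and 5.28% of all promoters. A match is a run of letters and not a shown binding site. The promoters below are printed 5′ to 3′ on the gene's strand, with capitals on the matches to GTTGCC or its reverse complement, and in Cdkn1a on the matches to ACATGT. They were chosen after the search, and of the RefSeq starts of Cdkn1a only the one with the ACATGT matches is shown.
Mcidas (chr13:112993618-112993917, plus strand, match at base 56): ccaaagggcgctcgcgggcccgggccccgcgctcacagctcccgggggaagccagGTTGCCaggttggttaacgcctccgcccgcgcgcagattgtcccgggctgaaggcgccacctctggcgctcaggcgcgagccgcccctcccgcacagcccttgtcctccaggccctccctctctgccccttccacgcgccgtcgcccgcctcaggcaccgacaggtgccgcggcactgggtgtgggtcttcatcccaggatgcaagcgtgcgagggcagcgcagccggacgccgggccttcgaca
Ccno (chr13:112987552-112987851, plus strand, match at base 32): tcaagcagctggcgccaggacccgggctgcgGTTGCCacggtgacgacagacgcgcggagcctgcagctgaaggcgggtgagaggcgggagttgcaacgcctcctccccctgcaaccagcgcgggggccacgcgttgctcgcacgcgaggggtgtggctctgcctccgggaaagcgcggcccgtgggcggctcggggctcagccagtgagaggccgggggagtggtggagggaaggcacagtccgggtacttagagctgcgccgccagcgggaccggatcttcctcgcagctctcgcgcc
Shisa8 (chr15:82212766-82213065, minus strand, match at base 10): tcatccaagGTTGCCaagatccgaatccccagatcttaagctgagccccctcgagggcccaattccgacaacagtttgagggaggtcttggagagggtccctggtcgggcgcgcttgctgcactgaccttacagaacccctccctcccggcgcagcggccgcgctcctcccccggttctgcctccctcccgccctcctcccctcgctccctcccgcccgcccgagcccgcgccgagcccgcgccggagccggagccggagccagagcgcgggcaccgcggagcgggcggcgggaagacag
Dynlrb2 (chr8:116504765-116505064, plus strand, match at base 200): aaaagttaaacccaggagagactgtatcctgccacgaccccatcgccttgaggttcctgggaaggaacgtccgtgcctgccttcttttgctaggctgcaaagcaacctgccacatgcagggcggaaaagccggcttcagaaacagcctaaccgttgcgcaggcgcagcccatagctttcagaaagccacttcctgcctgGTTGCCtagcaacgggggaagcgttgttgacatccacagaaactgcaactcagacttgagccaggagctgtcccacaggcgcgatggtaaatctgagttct
Cdkn1a (chr17:29090729-29091028, plus strand, matches at bases 202 and 212): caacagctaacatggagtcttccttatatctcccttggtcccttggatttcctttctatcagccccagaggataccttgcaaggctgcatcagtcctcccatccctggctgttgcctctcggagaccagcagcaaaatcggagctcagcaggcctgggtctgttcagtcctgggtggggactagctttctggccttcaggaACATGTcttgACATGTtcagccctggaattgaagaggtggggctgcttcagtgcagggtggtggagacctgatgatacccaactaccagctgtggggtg

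Genes of the motile axoneme were at low levels. Of 18 listed genes, 5 had 20 CPM or more and could be tested, and all 5 were called higher in both libraries, with a median log2 ratio of 2.08 in gof and 2.27 in control. A gene near 20 CPM that passed only through the Trp73 neurons had to differ, so nothing is drawn from this count. Dynlrb2, a dynein light chain, had 93.9 (80.8 to 109) CPM in gof Trp73 neurons against 8.96 (6.27 to 12.4) CPM in Trp73-negative ones, and 46.4 (40 to 53.6) against 4.18 (2.70 to 6.16) CPM in control. Rsph1, of the radial spoke head, had 22.2 against 3.98 CPM in gof and 20.4 against 2.67 CPM in control. Spag6l, of the central pair, had 24.2 against 4.98 CPM in gof and 23.1 against 4.01 CPM in control, and Ccdc39, which sets the axonemal repeat, 40.8 against 8.96 CPM in gof and 38 against 8.35 CPM in control. Nme5, a radial spoke component outside the list, had 80 against 17.7 CPM in gof and 52.9 against 9.86 CPM in control. The outer arm genes Dnai1 and Dnai2 were not analysed here.

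Among 15 tested genes of cell cycle exit and p53-family targets, 4 were called higher in both libraries (Cdkn1a, Ccng1, Bbc3 and Trp53inp1) and none lower, beside 2.2% of all tested genes called higher. Ccng1 in both libraries, and Bbc3 in control, passed the limit on low values only through the Trp73 neurons, so nothing is drawn from this count. The list's median was 0.01 in gof and 0.23 in control, beside 0.06 and 0.02 over all genes. Cdkn1a, which encodes the cyclin-dependent kinase inhibitor p21, had 587 (554 to 622) CPM in gof Trp73 neurons against 125 (114 to 136) CPM in gof Trp73-negative neurons. In control it had 585 (561 to 609) CPM against 72.2 (65.5 to 79.3) CPM. It was detected in 72.8% (66.7 to 78.3) of thinned gof and 75.1% (70.2 to 79.6) of thinned control Trp73 neurons (unthinned, 82.3% and 88.1%), against 18.2% and 15.9% of Trp73-negative neurons and 2.04% and 1.32% of mesenchymal cells. Ccng1, a cyclin G known as a p53 target, had 43.9 against 12.9 CPM in gof and 26.3 against 11.2 CPM in control, and the BH3-only cell death gene Bbc3 had 52.6 against 25.9 CPM in gof and 35 against 17.9 CPM in control. Pidd1, a p53-induced death domain gene outside the list, had 77.4 against 16.7 CPM in gof and 49.4 against 9.69 CPM in control. Other targets of p53 were not past the limit: the ubiquitin ligase gene Mdm2 stood at 69.2 against 54.2 CPM in gof and 69.5 against 52.1 CPM in control, and Bax, an effector of cell death, at 236 against 235 CPM in gof and 222 against 224 CPM in control. E2f7, a repressor of S phase genes, had 87.7 (75 to 102) against 18.2 CPM in gof and 127 (116 to 138) against 25.6 CPM in control.

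Genes with no listed place in these programmes also stood apart. Shisa8, of a family of transmembrane proteins that bind glutamate receptors, had 34.6 (26.8 to 43.9) CPM in gof Trp73 neurons against 1.49 (0.548 to 3.25) CPM in Trp73-negative ones, and 50.9 (44.2 to 58.4) against 2.34 (1.28 to 3.92) CPM in control. Cav2, of the caveolae, had 78.4 (66.5 to 92) against 7.46 CPM in gof and 47.4 (40.9 to 54.6) against 4.01 CPM in control. Wrap73 lies head to head with Trp73 on the opposite strand, with 2163 bases between the annotated starts of these genes. It had 52.1 against 22.6 CPM in gof and 47.4 against 24.1 CPM in control, and was singled out after its value was seen. The 3′ reads do not separate the forms of p73 that arise from the promoters of Trp73 (4:154056253-154140208, minus strand).

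Among 13 Cajal-Retzius identity genes, 4 were called higher and 1 lower in both libraries, beside 2.2% and 0.584% of all tested genes. Of the higher ones only Cacna2d2 is outside the rule. Reln had 156 (139 to 174) CPM in gof Trp73 neurons against 69.9 (62 to 78.6) CPM in Trp73-negative neurons, and 146 (134 to 158) against 56.1 (50.3 to 62.5) CPM in control. Lhx1 had 263 against 128 CPM in gof and 146 against 69.8 CPM in control, and Ebf2, an early B-cell factor family member also in the rule, 156 against 198 CPM in gof and 169 against 201 CPM in control. Cacna2d2, a calcium channel subunit of Cajal-Retzius cells, had 139 against 45.5 CPM in gof and 104 against 29.2 CPM in control. Calb2, which encodes calretinin, a classic marker of Cajal-Retzius cells at later stages, went the other way: it had 22.7 (16.5 to 30.5) CPM in gof Trp73 neurons against 70.9 (62.9 to 79.6) CPM in Trp73-negative neurons, and 15.4 (11.8 to 19.7) against 61.3 (55.2 to 67.9) CPM in control. In cells of at least 2000 genes that had no more than 5% mitochondrial UMIs, the smaller of its log2 ratios was -0.70 and it was not called.

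Of 20 pan-neuronal genes, only the vesicle gene Nsg2 was called in both libraries, beside 0.584% of all tested genes called lower. It was lower, with 43.9 against 84.1 CPM in gof and 21.4 against 39.4 CPM in control. Trp73-negative neurons were chosen by the summed UMIs of Stmn2, Tubb3, Elavl3, Elavl4 and Dcx, all of this list, so nothing is drawn from this count. Stmn2, a microtubule regulator of growing axons, stood at 1385 against 1611 CPM in gof and 829 against 999.7 CPM in control, and was not past the limit. Among 20 axon guidance genes 2 were lower, beside 0.584% of all tested genes. Robo3, a receptor for midline crossing, had 11.3 against 47.3 CPM in gof and 5.46 against 23.7 CPM in control, and Plxna4, a semaphorin receptor, 13.4 against 44 CPM in gof and 14.9 against 43.9 CPM in control. Both passed the limit on low values only through the Trp73-negative neurons. Of 16 neurogenesis genes, 2 were lower, beside 0.584% of all tested genes. These were the Notch ligand gene Dll1, with 54.7 against 115 CPM in gof and 81.7 against 132 CPM in control, and Neurod6, a bHLH factor of pallial neurons, with 7.74 against 41.3 CPM in gof and 10.4 against 21.2 CPM in control. Neurod6 passed the limit on low values only through the Trp73-negative neurons, so nothing is drawn from this count. The other named lower genes included Nxph4, a neurexophilin (28.9 against 92.5 CPM in gof and 14.9 against 47.3 CPM in control) and Tenm1, a teneurin of synaptic partner matching (28.9 against 69.7 CPM in gof and 13.2 against 35.7 CPM in control).

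**Figure D3:**
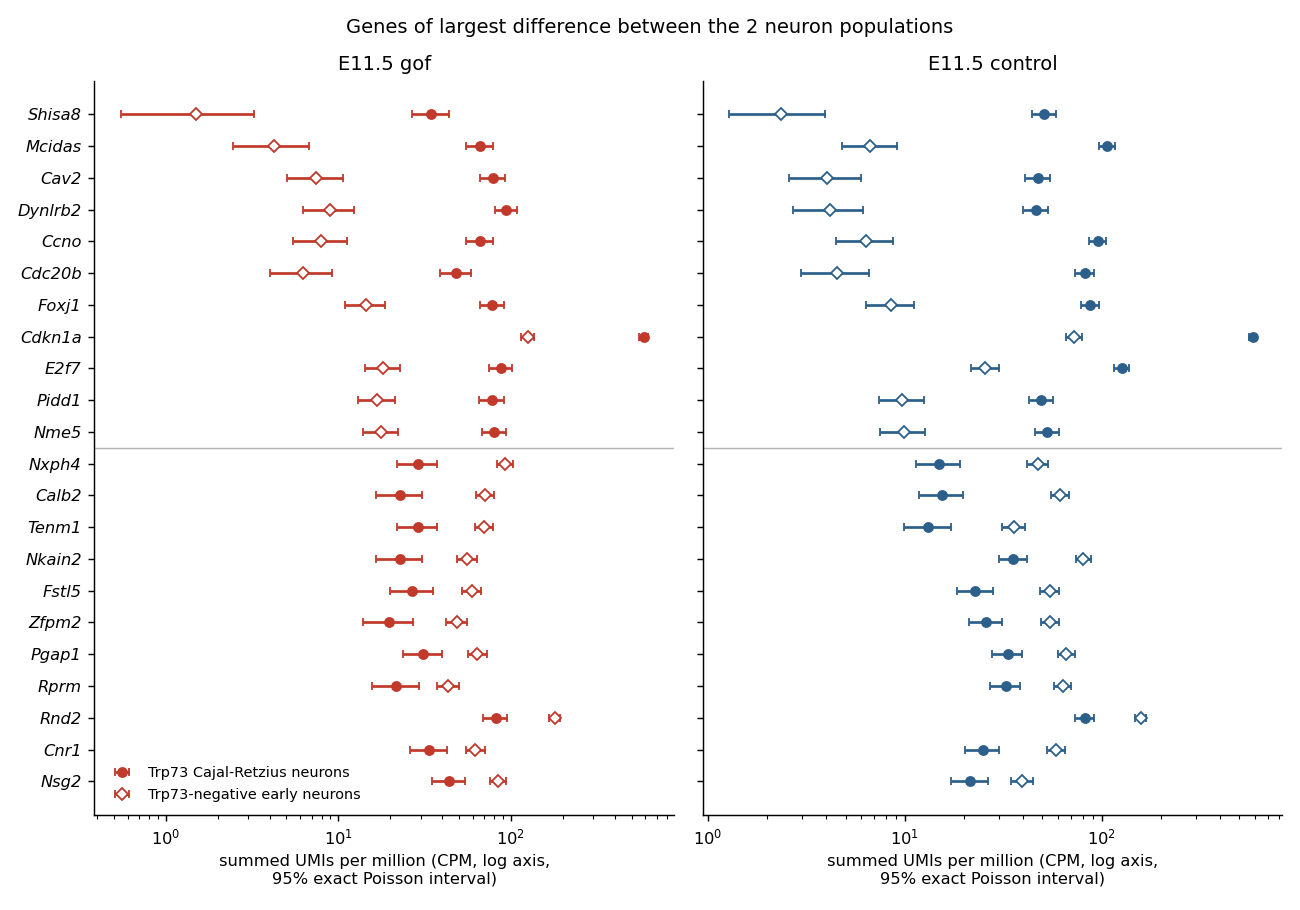
CPM on a log axis of the 11 named genes higher and 11 of the named genes lower in Trp73 neurons (filled) than in Trp73-negative early neurons (open), with 95% Poisson intervals, in the gof and the control library. Mcidas, Shisa8 and Dynlrb2 were among the genes farthest apart, and Calb2 was among those lower in Trp73 neurons in both panels.

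Some hem genes were also higher. Of 13 hem genes, 3 were called higher in both libraries than in Trp73-negative neurons, beside 2.2% of all tested genes. Of these, Bmp7 passed the limit on low values in gof only through the Trp73 neurons. Rspo3, a secreted enhancer of Wnt signalling, had 969 CPM in gof Trp73 neurons against 407 CPM in Trp73-negative neurons, and 1373 against 554 CPM in control. The Wnt ligand gene Wnt7b had 59.3 against 36.8 CPM in gof and 65.3 against 39.8 CPM in control, and the BMP ligand gene Bmp7 27.4 against 15.4 CPM in gof and 34.5 against 22.1 CPM in control. Ion channel and receptor genes were also among the higher ones: Cacna1c, an L-type calcium channel, had 27.4 against 13.7 CPM in gof and 37.5 against 14.2 CPM in control, and Chrna3, a nicotinic receptor subunit, 36.6 against 20.1 CPM in gof and 44.2 against 18 CPM in control. No gene was called in both libraries among 12 Wnt targets, 10 Notch genes, 7 BMP response genes and 18 S phase genes. Slc17a6, the vesicular glutamate transporter of early neurons, was detected in 37.2% of gof and 31.9% of control Trp73 neurons after thinning (unthinned, 54.3% and 51.7%). Gad2, an enzyme of GABA synthesis, had a UMI in 0 of 239 thinned gof cells, where a count of 0 allows a share of cells with a UMI of up to 1.26%, and in 0 of 342 thinned control cells, which allows up to 0.877%. Unthinned, 1 of 300 gof and 1 of 352 control cells had a Gad2 UMI.

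The Trp73 neurons with a UMI of Ccno or Mcidas differed from those without. There were 126 with and 174 without in gof (median 4751.5 and 3996 UMIs) and 227 with and 125 without in control (6592 and 5946 UMIs), so the cells with such a UMI were somewhat deeper. In both libraries 34 genes were called higher in the cells with (0.472% of 7206 tested) and 62 lower (0.86%), with Ccno and Mcidas themselves higher by the choice of cells. Of the 15 multiciliation regulators 8 were higher in each library, these included, where 2.18% of all tested genes were higher in gof and 2% in control. Gmnc had 338 CPM with and 43.1 CPM without in gof, and 279 and 91 CPM in control. Foxj1 had 128 and 38.5 CPM in gof and 121 and 24.9 CPM in control, and E2f7 153 and 36.7 CPM in gof and 174 and 38.4 CPM in control. Hes6, an antagonist of Hes1 in neuronal differentiation, had 279 and 140.4 CPM in gof and 233 and 124 CPM in control, and Cdkn1c, the inhibitor p57, 541 and 293 CPM in gof and 456 and 239.5 CPM in control.

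Some pan-neuronal genes were lower in the cells with Ccno or Mcidas. Of 19 pan-neuronal genes 10 were lower in each library, 9 of them in both, and 1, Rbfox3, was higher in control (56.5 CPM with and 29.1 CPM without, against 47.1 and 40.4 CPM in gof). The list had a median log2 ratio of -0.75 in gof and -0.64 in control beside 0.02 and -0.01 over all genes (3.5% of all tested genes were lower in gof and 2.44% in control). The 9 erythroid markers moved in the same split in gof, where 8 were called lower: they summed to 5465 CPM with and 25231 CPM without in gof, and to 14041 and 16078 CPM in control, with none at 0. Their part in the result was not tested. Stmn4, a stathmin, had 11.8 CPM with and 144 CPM without in gof, and 12.2 and 98.1 CPM in control. It passed the limit on low values only through the cells without. Stmn2 had 915 and 1751 CPM in gof and 589.7 and 1274 CPM in control, and Gap43, a growth cone protein, 84.9 and 262 CPM in gof and 65.6 and 143 CPM in control. Ina, a neurofilament subunit, had 55.4 and 162 CPM in gof and 27.1 and 128 CPM in control. Cdkn1a was not called in this split, with 581 CPM with and 592 CPM without in gof and 629 and 501 CPM in control. Reln was 120.2 and 184 CPM in gof and 129 and 178 CPM in control and was not called in both libraries.

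**Figure D4:**
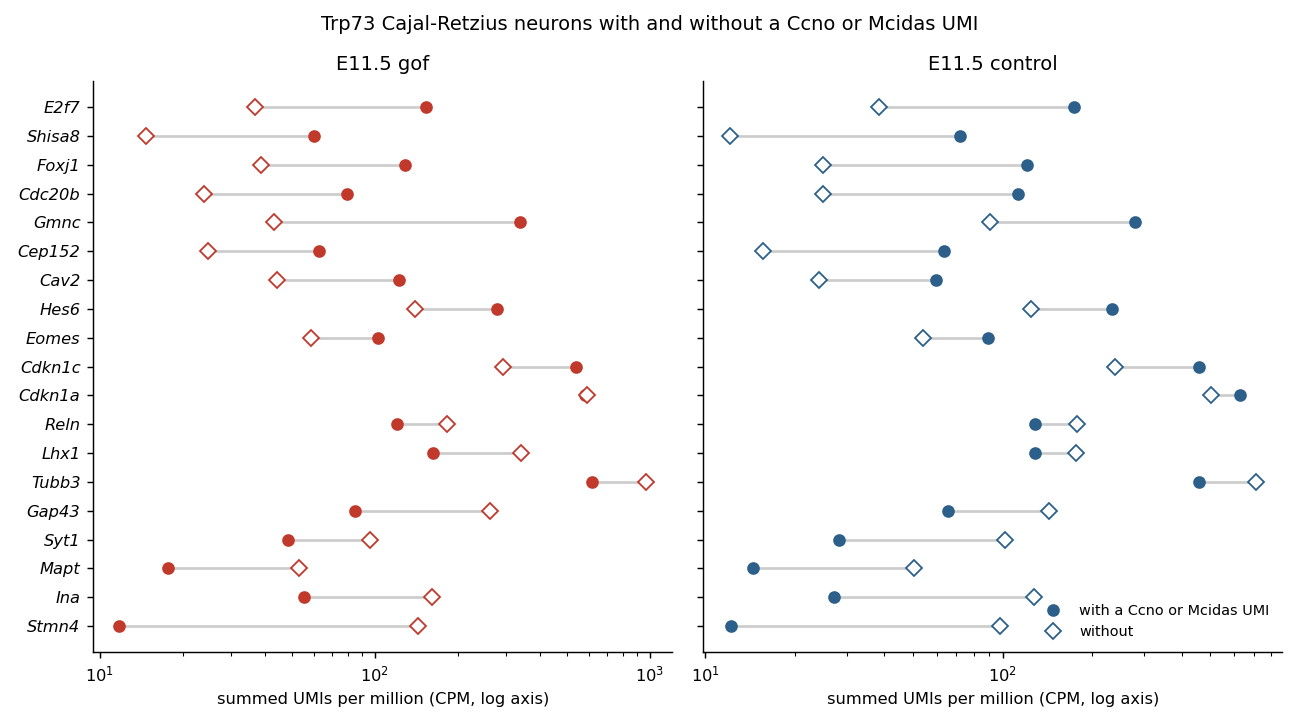
CPM on a log axis of 19 genes in Trp73 neurons with (filled) and without (open) a UMI of Ccno or Mcidas, in the gof and the control library. Gmnc, Foxj1 and E2f7 lie to the right in the cells with such a UMI, and Stmn4, Gap43 and Ina lie to the left, in both libraries.

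A split by summed neuronal UMIs, chosen after the data were seen, gave higher values of several of these regulators in the cells with less neuronal RNA. In the 233 gof cells with 10 or more neuronal UMIs Gmnc had 103 CPM, against 515 CPM in the 67 cells with fewer, and in control it had 178 CPM in 276 cells against 370.1 CPM in 76. Foxj1 had 58.9 against 172 CPM in gof and 79.4 against 124 CPM in control. Mcidas had 52.7 against 132 CPM in gof but 103 against 119.8 CPM in control, a smaller gap. Cep152 and Myb had no such gap in control, with 47.8 against 41.7 CPM and 26.5 against 25.6 CPM. Markers of other cells moved with this split. The 9 erythroid markers summed to 19768 CPM in gof cells with 10 or more neuronal UMIs against 818 CPM in those with fewer, and to 13045 against 22303 CPM in control. The 10 choroid plexus markers summed to 171 against 242 CPM in gof and 236 against 1217 CPM in control, with Kcne2 at 0 throughout. The 8 microglia and immune markers summed to 11.2 against 135 CPM in gof and 35.9 against 45.8 CPM in control, with Ptprc at 0 throughout, and Pf4 had 83.1 against 5944 CPM in gof and 46.3 against 21.5 CPM in control. Their part in the result was not tested. The genes that were higher in the cells with more neuronal RNA included Ebf1 (167 against 61.3 CPM in gof and 106 against 40.4 CPM in control), Bbc3 (59.6 against 18.4 CPM in gof and 39.6 against 14.8 CPM in control) and Cdkn1a (620.5 against 423 CPM in gof and 633 against 370.1 CPM in control).

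A UMI of the Ai9 reporter tdTomato was found in 12.6% of thinned gof Trp73 neurons (8.63 to 17.4, 30 of 239) and 18.4% of control ones (14.46 to 22.9, 63 of 342) (unthinned, 25.3% and 38.4%). After thinning, Trp73-negative neurons had one in 6.81% of gof (4.76 to 9.39) and 8.08% of control cells (5.69 to 11.1), and mesenchymal cells in 3.52% and 2.44%. The log2 ratio of gof to control in Trp73 neurons was -0.55, and the intervals overlapped. Absence of a tdTomato UMI does not mark a cell without Cre at this depth, so the cells with a UMI are compared with the rest only as richer in the reporter. There were 76 with and 224 without in gof (median 4750 and 3994 UMIs) and 135 with and 217 without in control (9810 and 5443 UMIs), a gap in depth that was large in control. In both libraries 33 genes were higher in the cells with tdTomato (0.459% of 7189 tested) and 11 lower (0.153%).

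Hem genes were among those higher with tdTomato. Rspo1, another R-spondin, had 140.4 CPM with and 53.3 CPM without in gof, and 245 and 90 CPM in control. Wnt8b, a hem Wnt ligand gene, had 104 and 48.6 CPM in gof and 163 and 91.6 CPM in control, and the BMP ligand gene Bmp4 51.3 and 13.3 CPM in gof and 37 and 20.4 CPM in control. In gof Bmp4 passed the limit on low values only through the cells with tdTomato. Markers of other cells moved in this split as well. In control 5 of 12 neural progenitor markers were higher with tdTomato (the list summed to 3300 CPM with and 2428 CPM without), 3 of 5 tested mesenchymal markers (273 and 156 CPM) and 2 of 4 tested choroid plexus markers (565 and 245 CPM, with Kcne2 and Prlr at 0 in both), and in gof all 9 erythroid markers were lower (6407 and 21857 CPM). In gof the progenitor list summed to 2079 CPM with and 1786 CPM without, the mesenchymal list to 227 and 246 CPM and the choroid plexus list to 246 and 151 CPM, and in control the erythroid list to 17174 and 11949 CPM. Their part in the result was not tested. The neuronal cytoskeleton gene Dcx was lower with tdTomato, at 104 and 158 CPM in gof and 61.5 and 109 CPM in control. Of the Wnt targets, 6 of 12 were called higher and 1 lower with tdTomato in gof (2.98% and 1.49% of all tested genes), and 2 of 10 higher in control (2.56%). In gof, Dkk1 and Wif1 passed the limit on low values only through the cells with tdTomato, so nothing is drawn from the gof count. Dkk1, a secreted Wnt inhibitor, had 58.9 CPM with and 19.6 CPM without in gof, against 1.85 and 3.21 CPM in control. Wif1, another one, had 54.4 and 11.8 CPM in gof and 6.48 and 4.82 CPM in control, and Axin2, an intracellular feedback gene, 84.6 and 31.4 CPM in gof and 72.6 and 51.4 CPM in control. In control, 8 of 13 Cajal-Retzius identity genes and 10 of 19 pan-neuronal genes were lower with tdTomato, where 2.79% of all tested genes were. Of the 8, Trp73, Lhx1, Ebf3 and Tbr1 are genes of the rule, so nothing is drawn from this count. Ebf1, outside the rule, had 157 CPM with and 145 CPM without in gof, and 61.5 and 131 CPM in control. The difference between the libraries in this split was not tested.

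Trp73 neurons were 3.95% of filtered barcodes in gof (3.52 to 4.41, 300 of 7593) and 5.06% in control (4.55 to 5.6, 352 of 6962), a log2 ratio of -0.36 with separate intervals. Median depth over all filtered barcodes was also lower in gof, and depth and genotype cannot be told apart by this share. With cells thinned to 3000 UMIs before the rule was applied the log2 ratio was -0.28, and over all alternatives run it lay between -0.71 and -0.16. At E14.5 the same rule found 1.11% in gof (0.854 to 1.42, 62 of 5572) and 8.19% in control (7.56 to 8.85, 579 of 7069), where the median depth was 14354.5 UMIs in gof and 13166 in control. The log2 ratio was then -2.88. The interval at E14.5 in gof lay below the other 3.

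Between gof and control Trp73 neurons at E11.5, 364 of 6622 tested genes were called higher in gof (5.5%) and 454 lower (6.86%), with a median log2 ratio of -0.08 over all tested genes. With the median set to 0, these numbers were 494 higher and 314 lower, so the share of higher calls among all calls was 44.5% as summed and 61.1% after centring. Without the barcodes of over 20000 UMIs 279 genes were higher (4.26%) and 269 lower (4.11%). Ctnnb1, the gene of beta-catenin, had 277 CPM in gof and 262 CPM in control. The labels do not say which part of the gene the gof allele changes, so its 3′ reads check neither genotype.

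Among the named genes below control were a target of Notch and targets of BMP signalling. Hes5, the Notch effector of neural progenitors, had 41.8 (33.2 to 52) CPM in gof Trp73 neurons against 315 (298 to 333) CPM in control ones (log2 ratio -2.88), and over the alternatives run the ratio lay between -3.8 and -2.58. It was detected in 5.86% (3.24 to 9.63) of thinned gof cells and 35.1% (30 to 40.4) of control cells (unthinned, 12.7% and 47.7%). Its difference was of like size in Trp73-negative neurons, with 41.3 CPM in gof against 312 CPM in control, and in all remaining barcodes, with 47.9 CPM in gof against 343 CPM in control. Id1, a BMP-induced inhibitor of proneural factors, had 39.2 (30.9 to 49.1) CPM in gof against 250 (235 to 266) CPM in control (log2 ratio -2.64, beside -2.44 in Trp73-negative neurons and -1.51 in the rest). Id3, its relative, had 426 CPM in gof against 1380 CPM in control (-1.69, beside -1.81 and -1.02).

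The other named lower genes were a choroid plexus gene, histone genes and progenitor genes among others. Ttr, a choroid plexus gene, had 21.2 CPM in gof against 218 CPM in control. The choroid plexus marker list, of which 8 of 10 genes were detected in each and Kcne2 in neither, summed to 183 CPM in gof and 417 CPM in control, and its part in the result was not tested. The linker histone gene H1f5 had 33 CPM in gof against 177 CPM in control, the histone gene Hist1h2ap 19.1 CPM in gof against 82.4 CPM in control, and Fbxo5, an inhibitor of the anaphase-promoting complex, 18.6 CPM in gof against 63.3 CPM in control. Hopx, a progenitor homeodomain gene, had 45.4 CPM in gof against 118 CPM in control, and Adgrv1, an adhesion receptor, 23.2 CPM in gof against 65.5 CPM in control, which was not called without the deep barcodes (log2 ratio -0.58, against -1.46 with them). Creb5, a bZIP factor, had 16 CPM in gof against 52.4 CPM in control, but a log2 ratio of 0.10 with cells chosen after thinning. Of the S phase genes 7 of 17 were lower and of the G2 and mitosis genes 10 of 20, where 6.86% of all tested genes were lower. Without the barcodes of over 20000 UMIs these counts were 0 of 15 and 1 of 15, where 4.11% of all tested genes were lower. The neural progenitor marker list summed to 1886 CPM in gof and 2896 CPM in control Trp73 neurons, and all 12 of its genes were detected in both.

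Ctla2a, Ppbp and Pf4 led the named genes above control, with most of their UMIs in few barcodes. Ctla2a had 196 CPM in gof against 0.248 CPM in control, Ppbp 61.9 CPM in gof against 0 CPM in control, and Pf4 1070 CPM in gof against 41.7 CPM in control. Pf4 and Ppbp encode platelet chemokines, and 1 gof barcode of 21234 UMIs held 1877 of the 2073 Pf4 UMIs of the gof Trp73 neurons (90.5%). A single gof barcode also held 358 of the 379 Ctla2a UMIs. Without the 6 gof and 9 control cells that had 5 or more Pf4 UMIs, the log2 ratio was 1.10 for Pf4, 2.53 for Ctla2a, 1.83 for Gng11 and 0.06 for Cd9, against 4.65, 7.30, 2.88 and 1.85 with them, and only Gng11 was still called. The other named higher genes, which were called without these cells as well, were Dqx1 (99.1 CPM in gof against 7.70 CPM in control), Pdgfrl (166 CPM in gof against 47.9 CPM in control), Celf3, a neuronal RNA-binding protein gene (158 CPM in gof against 50.4 CPM in control), Osbpl7 (62.4 CPM in gof against 18.9 CPM in control) and Tmem53 (50.1 CPM in gof against 12.9 CPM in control). Dqx1 was higher in gof Trp73-negative neurons too, by 3.04 on the log2 scale, and Osbpl7 by 2.38.

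No multiciliation regulator was called higher in gof. Of 15, Mcidas (log2 ratio -0.68), Cdc20b (-0.76) and Gmnn (-0.63) were called lower in gof, beside 6.86% of all tested genes, and the list's median was -0.31. Ccno (-0.52), Gmnc (-0.31) and Foxj1 (-0.17) were not past the limit. In Trp73 neurons of at least 10 neuronal UMIs, Gmnc (-0.78), Mcidas (-0.96), Ccno (-0.88) and Cdc20b (-0.97) were called lower. Without the deep barcodes Mcidas had 78.3 CPM in gof against 167 CPM in control, Ccno 79.6 CPM in gof against 153 CPM in control and Cdc20b 56 CPM in gof against 131 CPM in control. These and Plk4 were then called lower, and the median was -0.51. Cdkn1a was not called, with 587 CPM in gof and 585 CPM in control. Without the deep barcodes it had 699.6 CPM in gof against 1009 CPM in control (-0.53), which was not called.

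The calls of identity and neuronal genes depended on the deep barcodes. As summed, 6 of 13 Cajal-Retzius identity genes were called higher in gof (Lhx1, Lhx5, Ebf1, Ebf3, Tbr1 and Nhlh2) and 8 of 19 pan-neuronal genes, beside 5.5% of all tested genes. Of these 6, Lhx1, Ebf3 and Tbr1 are genes of the rule, as are Trp73 and Reln among the 13, and the Trp73 neurons had a median of 4241 UMIs in gof and 6382 in control, so nothing is drawn from this count. Lhx1 had 263 CPM in gof against 146 CPM in control, but 311 CPM in gof against 266 CPM in control without the deep barcodes, and Tbr1, a T-box factor of early glutamatergic neurons, 234 CPM in gof against 138 CPM in control and then 269 CPM in gof against 234 CPM in control. Without them 1 identity gene (Lhx5) and no pan-neuronal gene was called. In Trp73-negative neurons 5 of 12 identity genes were higher in gof, where 4.74% of all tested genes were. Reln was not called with or without the deep barcodes (log2 ratio 0.09 and -0.33), with 156 CPM in gof and 146 CPM in control. Uncx, a homeodomain factor, was higher in gof with 72.2 CPM in gof against 31 CPM in control, and Dmrt3, a medial pallial factor, lower with 22.7 CPM in gof against 57.1 CPM in control, both also without the deep barcodes.

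Some hem genes were lower in gof. Of 13 hem genes 8 were called lower (Lmx1a, Wnt3a, Wnt5a, Wnt8b, Rspo1, Rspo2, Bmp6 and Id3), with a median log2 ratio of -0.93, beside 6.86% of all tested genes called lower. Rspo2 had 115 CPM in gof against 236 CPM in control, Rspo1 83.1 CPM in gof against 173 CPM in control, Wnt8b 67.6 CPM in gof against 129.8 CPM in control and Lmx1a, a LIM-homeodomain gene of the hem, 21.7 CPM in gof against 42.5 CPM in control. Without the deep barcodes 3 of 10 were lower (Rspo2, Rspo3 and Id3), beside 4.11% of all tested genes, and the median of the list was -0.54. Of 9 Notch genes 5 were lower (Notch1, Hes5, Hey1, Nrarp and Maml3), beside the same 6.86%, and without the deep barcodes Hes5, Hey1 and Maml3 were. Trp73-negative neurons, which share the libraries, had 6 of 12 hem genes and 7 of 10 Notch genes lower in gof, against 9.64% of all genes tested in them. In all remaining barcodes 4 of 12 hem genes were lower (Lmx1a, Rspo2, Bmp6 and Id3), with a median of -0.46, beside 4.55% of all genes.

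Of 12 Wnt targets and feedback genes, Dkk1 and Wif1 were called higher in gof and the rest were not, beside 5.5% of all tested genes called higher. Both passed the limit on low values only through the gof cells, so nothing is drawn from this count. Dkk1 had 33 (25.4 to 42.2) CPM in gof Trp73 neurons against 2.48 (1.19 to 4.57) CPM in control, and Wif1 26.3 (19.6 to 34.6) CPM in gof against 5.71 (3.62 to 8.57) CPM in control. Axin2 measured 49.5 CPM in gof and 62.8 CPM in control, Lef1, a partner of beta-catenin on DNA, 71.7 CPM in gof and 93.6 CPM in control, Nkd1 41.8 CPM in gof and 47.4 CPM in control and Sp5 59.3 CPM in gof and 53.9 CPM in control. After thinning, Dkk1 was detected in 5.86% (3.24 to 9.63) of gof and 1.17% (0.32 to 2.97) of control Trp73 neurons (unthinned, 7.33% and 2.56%). Trp73-negative neurons had it in 4.01% of gof and 0.693% of control cells. Mesenchymal cells had it in 5.55% of gof and 6.39% of control cells, so their share is not used as a background level for Dkk1. With the cells chosen after thinning, where 8 of these genes passed the limit on low values, none was called higher, and Axin2 and Nkd1 were called lower.

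**Figure D5:**
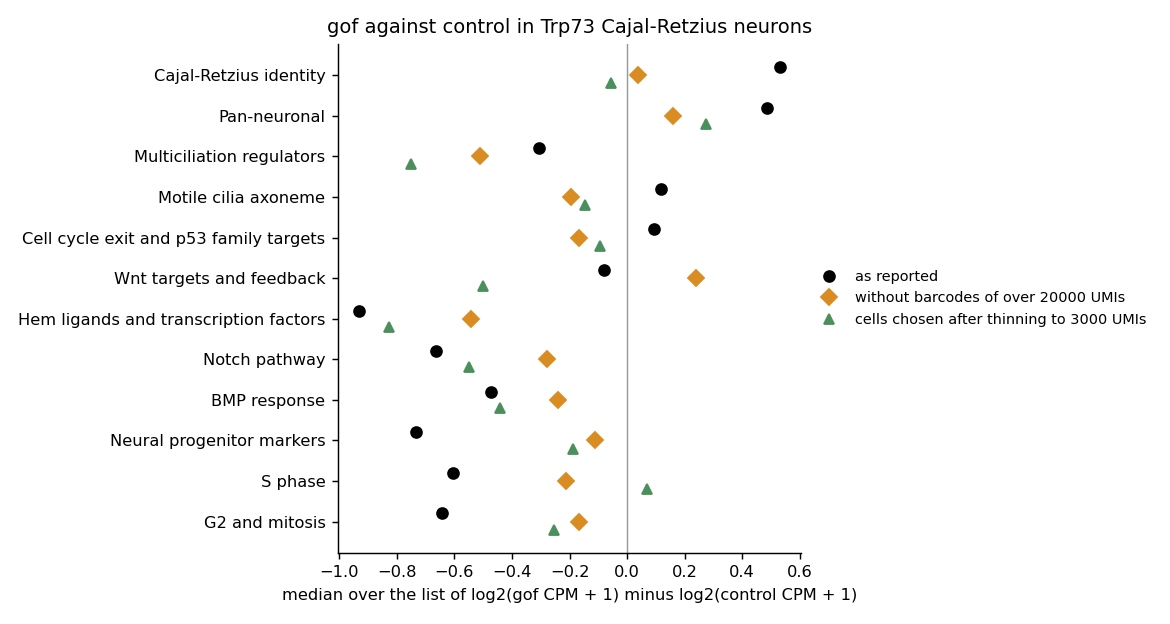
Median log2 ratio of gof to control in Trp73 neurons for 12 gene lists, as summed (black), without barcodes of over 20000 UMIs (orange diamonds) and with cells chosen after thinning to 3000 UMIs (green triangles). Cajal-Retzius identity had a median of 0.53 as summed and 0.04 without the deep barcodes, and the multiciliation, hem and Notch lists stay below 0 under all 3 settings.

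The cells found by the same rule at E14.5 carried Mcidas, Gmnc and Ccno above the level of E14.5 neurons without Trp73 in both libraries. Mcidas had 20.9 CPM in gof and 80.5 CPM in control E14.5 Trp73 neurons, against 0.0308 and 0.605 CPM in E14.5 neurons without Trp73. Gmnc had 138 CPM in gof and 320 CPM in control, against 26.4 and 13.8 CPM, and Ccno 18.6 and 68.7 CPM, against 0.154 and 0.634 CPM. Of 15 multiciliation regulators 9 were lower in gof than in control at E14.5, where 11.4% of 8213 tested genes were lower, with a median of -1.0 beside -0.08 over all genes. Ccno, among these, passed the limit on low values only through control. Choroid plexus markers moved with them: 5 of 8 tested were lower, and the 10 markers summed to 3395 CPM in gof, with Kl and Prlr at 0, and 6109 CPM in control, with none at 0. Of 10 dissociation and stress genes 8 were also lower (median -1.27). The part of either in the result was not tested. Reln, little different at E11.5, had 714 CPM in gof and 2469 CPM in control at E14.5. Wnt targets were 12 of 16 higher and 1 lower (7.12% of all genes were higher): Wif1 had 421 CPM in gof and 11.6 CPM in control, Dkk1 158 and 9.89 CPM, and Axin2 169 and 80.3 CPM. Only 11 genes of this list had 20 CPM or more in control Trp73 neurons of either age. The others, Wif1 and Dkk1 among them, passed the limit on low values only through gof, so nothing is drawn from this count. Hes5 was closer, with 257 CPM in gof and 382 CPM in control. Only 62 gof cells stand behind the gof values at E14.5. In control, E14.5 against E11.5 Trp73 neurons were higher in all 11 tested motile cilia genes, where 47.3% of 8002 genes were called higher, in 7 of 8 tested choroid plexus markers (median 2.48, summed to 6109 CPM at E14.5 and 417 CPM at E11.5), whose part in the result was not tested, and lower in 13 of 17 S phase genes, where 9.67% were lower. Only 5 motile cilia genes and 4 choroid plexus markers had 20 CPM or more in E11.5 Trp73 neurons of either library. The others passed the limit on low values only through the E14.5 cells, so nothing is drawn from these 2 counts. In gof the choroid plexus markers summed to 3395 CPM at E14.5 and 183 CPM at E11.5, with 5 of 6 tested higher and 1 lower, while 1 of 9 motile cilia genes was higher and 1 lower. Of 14 multiciliation regulators in gof 5 were lower, among them Mcidas, Ccno and Foxj1, and 1 (Rfx3) was higher. Of all 7879 genes tested in gof, 35.6% were higher and 8.55% lower. In control 2 of 15 multiciliation regulators were higher (Myb and Rfx3) and 1 was lower (Gmnn).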

How the data were processed

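RNA of dissected telencephalic midline was measured by droplet single-cell sequencing in 4 libraries, 1 for each genotype and age. The authors deposited raw UMI counts per gene and barcode for 21937 features, per the file headers. Cell Ranger 7.1.0 and mm10 are named in the submitters' processing notes. For the annotation version no source used here gives a name, and the deposited counts are whole numbers with no normalisation.

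UMI counts were read in Python 3.11.15 with pandas 2.3.3 and numpy 2.4.6. Trp73 neurons were picked by the rule given in the results, UMIs were summed over the cells of each population and library, and sums were divided by the population's total to give CPM. Exact 95% Poisson intervals belong to CPM and exact Clopper-Pearson intervals to shares (SciPy 1.17.1), and both cover counting error only. A gene was called when it was 1.5-fold apart after adding 1 CPM, with separate intervals, at 20 CPM or more in either population. Gene names were given by rule: of the called genes of at least 50 CPM, the 10 highest and 10 lowest of gof against control and the 12 highest and 12 lowest of Trp73 neurons against Trp73-negative neurons, leaving out genes of haemoglobin, mitochondria, ribosomes and the Y chromosome and those named after clones, with the called members of 27 gene lists and up to 3 of the highest and lowest of each. The 67 features with a symbol that occurs more than once were kept apart by their identifiers. With 1 library per group there is no replicate, no test was run, and a call compares libraries and not genotypes.

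The cells, the lists and the comparisons were chosen with earlier results of these data known. For shares of cells with a UMI, each cell was thinned to 3000 UMIs at random (seed 1). Doublet scores came from Scrublet in scanpy 1.11.5. Calls were tested on simulated data. Positions are from GENCODE M21 (GRCm38, the assembly of mm10) and promoters from RefSeq (GRCm38.p6). Alternatives covered the limits of the rule, doublets, barcodes with UMIs of other cell types, the choice of cells after thinning, the pseudocount, the minimum level, scaling and a mean over cells. The alternatives without barcodes of over 20000 UMIs, without barcodes of at least 5 Pf4 UMIs and with at least 10 neuronal UMIs were added after the data were seen. Some results are not reported here.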

Additional observations from a re-analysis of the deposited data

Results flagged for a closer look

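Some genes differed in opposite directions between groups that were set against the same kind of control. With 1 library per group, none of these differences between groups was tested.

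Platelet-linked genes were higher in gof Trp73 neurons than in gof Trp73-negative neurons, with a log2 ratio below 0 for the same comparison in control. The log2 ratios in gof and in control were 4.54 and -1.10 for Ctla2a, 3.23 and -1.22 for Ppbp, 2.78 and -0.44 for Pf4, 2.03 and -0.70 for Gng11, and 1.83 and -0.21 for Cd9. These ratios are after adding 1 CPM, and Ppbp was at 0 in control Trp73 neurons. In gof, 1 barcode of 21234 UMIs held 1877 of the 2073 Pf4 UMIs.

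Other genes changed the direction of gof against control between the ages. For Cd9 the log2 ratio of gof to control was 1.85 (E11.5) and -1.36 (E14.5). Hist1h2ap, a replication histone gene, had ratios of -2.05 and 1.74 at these ages, and Fbxo5 had -1.72 and 0.72. At E11.5 and then E14.5, Cav2 had 0.71 and -1.28, the radial spoke gene Nme5 had 0.59 and -0.91, and Nxph4 had 0.91 and -1.32. The E14.5 gof values rest on 62 cells.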

How the results depend on the processing

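No paired analysis was possible because each group is a single library, and no replicate could be left out for the same reason. Of 89 recomputed shares and counts, 72 stayed within their interval or within 1.5 times and 17 moved. Of 660 recomputed values of named genes, 607 kept their call, 52 lost it without being counted as turned and 1 turned: Creb5 in gof against control had 0.10 with cells chosen after thinning, against -1.65 as reported. The cause of this turn was not tested. For Trp73 neurons against Trp73-negative neurons, any gene whose 2 libraries then pointed in opposite directions was counted among the 52. The log2 ratio of the share of Trp73 neurons was -0.71 with at least 2 Trp73 UMIs, against -0.36. For 364 genes higher and 454 lower in gof, cells chosen after thinning gave 208 and 299, a minimum of 50 CPM gave 165 and 256, no minimum gave 623 higher, and leaving out barcodes of over 20000 UMIs gave 269 lower. For 151 genes higher and 40 lower in Trp73 neurons than in Trp73-negative neurons, at least 2000 genes with at most 5% mitochondrial UMIs gave 67 and 11, a minimum of 50 CPM gave 52 and 16, a mean over cells gave 293 and 89, leaving out barcodes of over 20000 UMIs gave 241 and 77, no minimum gave 248 higher, and cells chosen after thinning gave 95 lower. Depth limits all shares: a single Trp73 UMI marks 50.7% of the gof Trp73 neurons.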

Other observations

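Between the ages, many ion channel and axon guidance genes were called higher in Trp73 neurons at E14.5 than in those at E11.5. In control, 20 of 21 tested ion channel and receptor genes were called higher at E14.5 and 1 lower (median log2 ratio 1.85, beside 0.53 over all genes, 47.3% of which were called higher), and in gof 22 of 25 were higher and 1 lower (1.77, beside 0.49, with 35.6% of genes higher). The exception in both was Chrna3, a nicotinic receptor subunit. It had 8.51 CPM at E14.5 against 36.6 CPM at E11.5 in gof, and 16.9 against 44.2 CPM in control. Of the axon guidance genes 25 of 28 were higher and 1 lower in control and 21 of 26 higher in gof. Only 11 ion channel and receptor genes and 16 axon guidance genes had 20 CPM or more in E11.5 Trp73 neurons of either library. The others passed the limit on low values only through the E14.5 cells, so nothing is drawn from these counts. Calb2, below the level of other neurons at E11.5, had 104 CPM at E14.5 against 22.7 CPM at E11.5 in gof, and 69.5 against 15.4 CPM in control. Median depth was 14199 UMIs in gof and 12272 in control Trp73 neurons at E14.5, against 4241 and 6382 at E11.5.

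Of 8 tested dissociation and stress genes, Junb, Egr1, Ier3 and Dusp1 were called higher in gof than in control Trp73 neurons at E11.5 and none lower, beside 5.5% of all tested genes called higher, and 2 of 8 (Junb and Ier3) were called without the barcodes of over 20000 UMIs. In all other barcodes 4 of 9 were higher in gof (Junb, Ier3, Atf3 and Socs3), and in Trp73 neurons at E14.5 8 of 10 were lower in gof, Junb, Egr1, Ier3 and Dusp1 among them. Junb had 45.9 CPM in gof and 23.1 CPM in control, and Fos, of the same early response, 37.1 and 36.7 CPM. Of 8 FGF pathway genes Spry2 and Etv1 were higher in gof and Fgf17 lower, where 5.5% of all tested genes were higher and 6.86% lower, and Spry2 and Etv1 were higher and Fgf17 lower in all other barcodes too. Etv1, a target of FGF signalling, had 77.4 CPM in gof and 36 CPM in control Trp73 neurons, and 121 CPM in gof and 56.8 CPM in control neurons without Trp73. Crabp1, which binds retinoic acid, had 69.7 CPM in gof and 31.5 CPM in control Trp73 neurons, and 88.3 CPM in gof and 33.1 CPM in control ones without Trp73.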
